A study of Mus musculus with 19 samples.

Results

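Sleep-deprived mice that lack the receptor EphA4 were compared with sleep-deprived wild-type littermates by forebrain transcript level. The comparison uses the 5 arrays labelled as knockout and the 6 labelled as wild type among those exposed to 6 h of sleep deprivation, 11 of the 19 arrays in the series. The 8 other arrays, 4 per genotype, are undisturbed controls and show how the same genotype difference looked without sleep loss. They were also part of the fit, so each p-value below rests on a spread estimated from all 19 arrays unless stated otherwise. All groups shared the mixed strain Mixed BL6/10, the forebrain as tissue and a cycle of 12 h light and 12 h dark. Age and sex are not given in the labels, and neither is the way in which the gene was inactivated. The labels do not tie arrays to animals, and each p-value therefore reflects the spread between these samples, which may be technical. Every probe set, the group of probes that the array summarises into 1 value, entered the comparison, including those that the platform annotation assigns to several genes or to none.

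EphA4 is a receptor tyrosine kinase of the Eph family that binds ephrins of both the A and the B class on neighbouring cells. In development it guides axons by repulsion, and in the adult forebrain it sits on dendritic spines, where contact with ephrins on astrocytes and neurons shapes spines and synaptic plasticity. Sleep loss is known to change the level of many forebrain transcripts, and the comparison asks whether that state differs between animals with and without the receptor.

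The deposited values are log2 expression, so a difference of 1 is a doubling, and they ran from 2.18 to 14.2. Array medians lay between 5.94 and 6.07 in the sleep-deprived knockout and between 5.90 and 6.04 in the sleep-deprived wild type, and pairs of these 11 arrays correlated at 0.981 to 0.993. Wild-type sleep-deprived replicate 3 stood nearest to the other genotype: its mean correlation was 0.9916 with the knockout arrays and 0.9893 with its own group. No probe set is named Epha4, so the genotype labels could not be checked against the gene itself. Of 8 marker lists for cell types and regions, 6 had no measured gene, among them those for astrocytes, oligodendrocytes and microglia. The neuronal marker Map2, a microtubule protein of dendrites, had a mean level of 11.75 in the knockout and 11.80 in the wild type, with a difference of -0.05 ± 0.05 (SE). In whole forebrain, fewer cells of a type and less RNA per cell cannot be told apart.

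After sleep deprivation the knockout forebrain carried more of a small set of transcripts and less of very few. Of 8751 probe sets, 147 passed the test (limma, adjusted p under 0.05; 1.68% of those tested), with 135 higher (1.54%) and 12 lower (0.137%) in the knockout. The rises were modest: their median was 0.56, 4 exceeded 1, 84 lay between 0.5 and 1, and 47 were under 0.5. The falls ran from -0.34 to -0.51. Across all probe sets the difference was centred near 0, with a median of 0.0088, quartiles of -0.076 and 0.105 and 52.7% positive. The probe sets that passed were somewhat brighter than the rest, with 102 of 147 above the median level of 5.96.

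**Figure D1:**
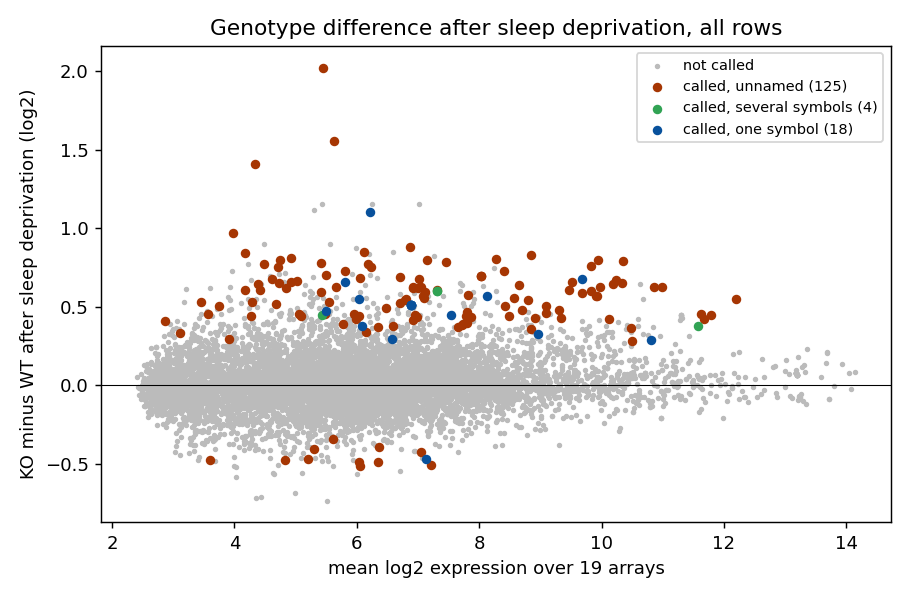
Knockout minus wild-type difference after sleep deprivation (log2, vertical axis) against mean log2 expression over 19 arrays (horizontal axis), 1 point per probe set. Coloured points passed the test: 125 unnamed probe sets, 4 with several symbols and 18 with 1 symbol, and 135 of these 147 lie above 0.

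The calls rest on several arrays, and their number moved with which arrays were fitted. With only the 11 sleep-deprived arrays in the fit, 36 probe sets passed, 34 of them among the 147. Of the 13 genes that have a name, only Vmn1r148 and Gm6625 passed in that fit. It has fewer arrays and takes no spread from the controls, and which of these lowered the count was not tested. Array weights, lower for noisier arrays, were 0.62 to 0.95 in the sleep-deprived wild type and 1.08 to 1.41 in its controls. In the knockout they were 0.56 to 1.44 and 0.57 to 1.42. Leaving out wild-type replicate 3 raised the count to 298. Leaving out knockout replicate 1 lowered it to 67, knockout replicate 3 to 94, wild-type replicate 1 to 89, and wild-type replicate 2 or 4 to 78. The excess of rises was smaller under rescaling: quantile normalization gave 96 higher and 37 lower, and centring each array on its median gave 83 higher and 26 lower.

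Complete separation of the 2 genotypes was more common among the probe sets that passed than over the whole array, which follows in part from how they were selected. For 87 of the 147, no knockout value lay within the wild-type range, 79 above it and 8 below it. Over all probe sets the count was 179 (2.05%), with the knockout above in 134 and below in 45. Wild-type replicate 3 accounted for much of the overlap: it was the highest wild-type array on 62 of the 135 higher probe sets, against 1233 of all 8751. Without it 122 of the 147 had separate groups, and without any other single wild-type array 88 to 92 did. Over all 8751 probe sets, leaving out wild-type replicate 3 raised the count from 179 to 399.

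Most of what changed has no gene name in the annotation. Unnamed probe sets made up 125 of the 147, or 2% of the 6265 unnamed ones tested, with 114 higher and 11 lower. Of the 1308 probe sets with 1 symbol 18 passed (1.38%), and of the 1178 with several symbols 4 did (0.34%). The 18 stand for 13 genes, 12 higher and 1 lower, and 8 of the 13 had genotype groups that did not overlap. In RefSeq 10 of the 13 were found by identifier, 6 as protein-coding genes, 3 as pseudogenes and 1 as a microRNA gene.

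Among protein-coding genes the clearest changes were in Vmn1r148, Pcid2 and Ndufa11. The promoters of these genes and of Ssxb8 are printed here, since they are the 4 of the 13 genes with an entry in the promoter table, and the genotype groups of all 4 were separate. Each stretch is the RefSeq sequence of build GRCm38.p6 from 250 bases before to 50 bases after the start, 5′ to 3′ on the gene's strand: chr17:56717512-56717811 on the plus strand for Ndufa11, chr8:13105294-13105593 on the minus strand for Pcid2, chrX:8690795-8691094 on the minus strand for Ssxb8 and chr7:22411981-22412280 on the plus strand for Vmn1r148. Capitals mark matches to the 4 motifs searched on both strands, the cAMP response element TGACGTCA, the GC box GGGCGG, the CCAAT box CCAAT and the TATA box TATAAA, none of which contains another.
Ndufa11: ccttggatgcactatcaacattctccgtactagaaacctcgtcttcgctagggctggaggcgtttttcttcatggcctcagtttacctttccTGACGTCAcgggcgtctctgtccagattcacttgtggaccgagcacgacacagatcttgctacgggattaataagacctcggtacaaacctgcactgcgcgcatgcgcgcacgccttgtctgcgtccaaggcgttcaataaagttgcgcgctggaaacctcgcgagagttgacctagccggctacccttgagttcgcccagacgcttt
Pcid2: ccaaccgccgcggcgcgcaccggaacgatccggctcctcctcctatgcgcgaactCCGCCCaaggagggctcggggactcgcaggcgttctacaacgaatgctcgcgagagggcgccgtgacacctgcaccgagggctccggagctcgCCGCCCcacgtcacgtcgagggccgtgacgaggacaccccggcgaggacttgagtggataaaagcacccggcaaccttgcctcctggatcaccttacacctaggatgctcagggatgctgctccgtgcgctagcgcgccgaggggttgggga
Ssxb8: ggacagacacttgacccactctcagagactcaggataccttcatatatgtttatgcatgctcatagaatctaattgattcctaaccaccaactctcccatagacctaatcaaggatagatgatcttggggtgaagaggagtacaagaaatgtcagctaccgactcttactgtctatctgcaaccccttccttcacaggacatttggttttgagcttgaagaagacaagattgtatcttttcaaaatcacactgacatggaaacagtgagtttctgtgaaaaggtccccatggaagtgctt
Vmn1r148: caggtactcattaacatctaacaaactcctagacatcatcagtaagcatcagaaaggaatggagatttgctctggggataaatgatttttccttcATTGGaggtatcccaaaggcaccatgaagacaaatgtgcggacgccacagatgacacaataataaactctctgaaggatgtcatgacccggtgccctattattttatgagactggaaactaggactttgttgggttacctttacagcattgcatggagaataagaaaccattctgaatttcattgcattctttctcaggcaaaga

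The Ndufa11 stretch holds a cAMP response element at positions 93 to 100, counted from its first base, which 1.79% of 32851 mouse promoters of the same length also hold. The Pcid2 stretch holds 2 GC boxes on its opposite strand, at positions 56 to 61 and 149 to 154, a motif present in 35.66% of promoters. In the Vmn1r148 stretch a CCAAT box lies on the opposite strand at positions 96 to 100, as in 37.41% of promoters somewhere in the window. None of the 4 motifs is in the Ssxb8 stretch. The GC content was 54.3% for Ndufa11, 67.7% for Pcid2, 42.0% for Ssxb8 and 40.3% for Vmn1r148, against a median of 52.7%. A match describes letters in the window and is no evidence of binding.

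Vmn1r148, a gene of the V1R family of vomeronasal pheromone receptors, rose most among named genes. Its level in the 5 knockout arrays was 7.09, 6.48, 6.68, 6.63 and 7.31, and the 6 wild-type arrays ran from 5.35 through a median of 5.77 to 6.04. Every knockout array lay above every wild-type array. The difference was 1.10 ± 0.16 (SE; limma adjusted p = 0.0018), a 2.15-fold change, and it kept its call in all 30 alternatives, among them each of the 19 arrays left out in turn. Undisturbed controls of the 2 genotypes had means of 6.26 and 6.09, so the sleep-deprived knockout stood above them and the sleep-deprived wild type below them. V1R genes have close copies, and a probe set can read several of them. Of 12 vomeronasal receptor genes measured, 8 had a positive difference and 1, Vmn1r148, passed, with a median of 0.08 over the list against 0.00 over all 1121 genes. Vmn1r78 (0.29, adjusted p = 0.25), Vmn2r125 (0.20, adjusted p = 0.42) and Vmn1r129 (-0.26, adjusted p = 0.44) came next by p.

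Pcid2, a component of the TREX-2 complex that takes part in export of messenger RNA from the nucleus, rose by a smaller amount. Knockout levels were 6.53, 6.08, 6.35, 6.30 and 6.34, and wild-type levels ran from 5.82 through 5.97 to 6.00. The groups did not overlap, and the wild-type arrays lay close together. The difference was 0.38 ± 0.07 (SE; limma adjusted p = 0.010) and the control difference -0.06. It passed with each array left out in turn, and had an adjusted p = 0.054 when only sleep-deprived arrays were fitted. Pcid2 was the only measured gene of a list of 21 mRNA export factors.

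Ndufa11, an accessory subunit of complex I of the mitochondrial respiratory chain, was the only named gene that passed as lower. Knockout levels were 6.88, 7.02, 6.58, 7.27 and 6.99, and wild-type levels ran from 7.32 through 7.38 to 7.61. Every knockout array lay below every wild-type array. The difference was -0.47 ± 0.10 (SE; limma adjusted p = 0.026). Control means were 7.04 in the knockout and 7.02 in the wild type, close to the sleep-deprived knockout mean of 6.95 and below the sleep-deprived wild-type mean of 7.42. The call was lost without wild-type replicate 2 or 4 or knockout replicate 1 or 3, with adjusted p up to 0.068, and when only sleep-deprived arrays were fitted (adjusted p = 0.074). Of 8 nuclear respiratory chain genes measured, 5 had a negative difference, and none but Ndufa11 passed. The median of that list was -0.05, and Sdhaf1 (-0.13), an assembly factor of complex II, and Uqcrb (0.13), a subunit of complex III, had adjusted p of 0.34 and 0.46.

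**Figure D2:**
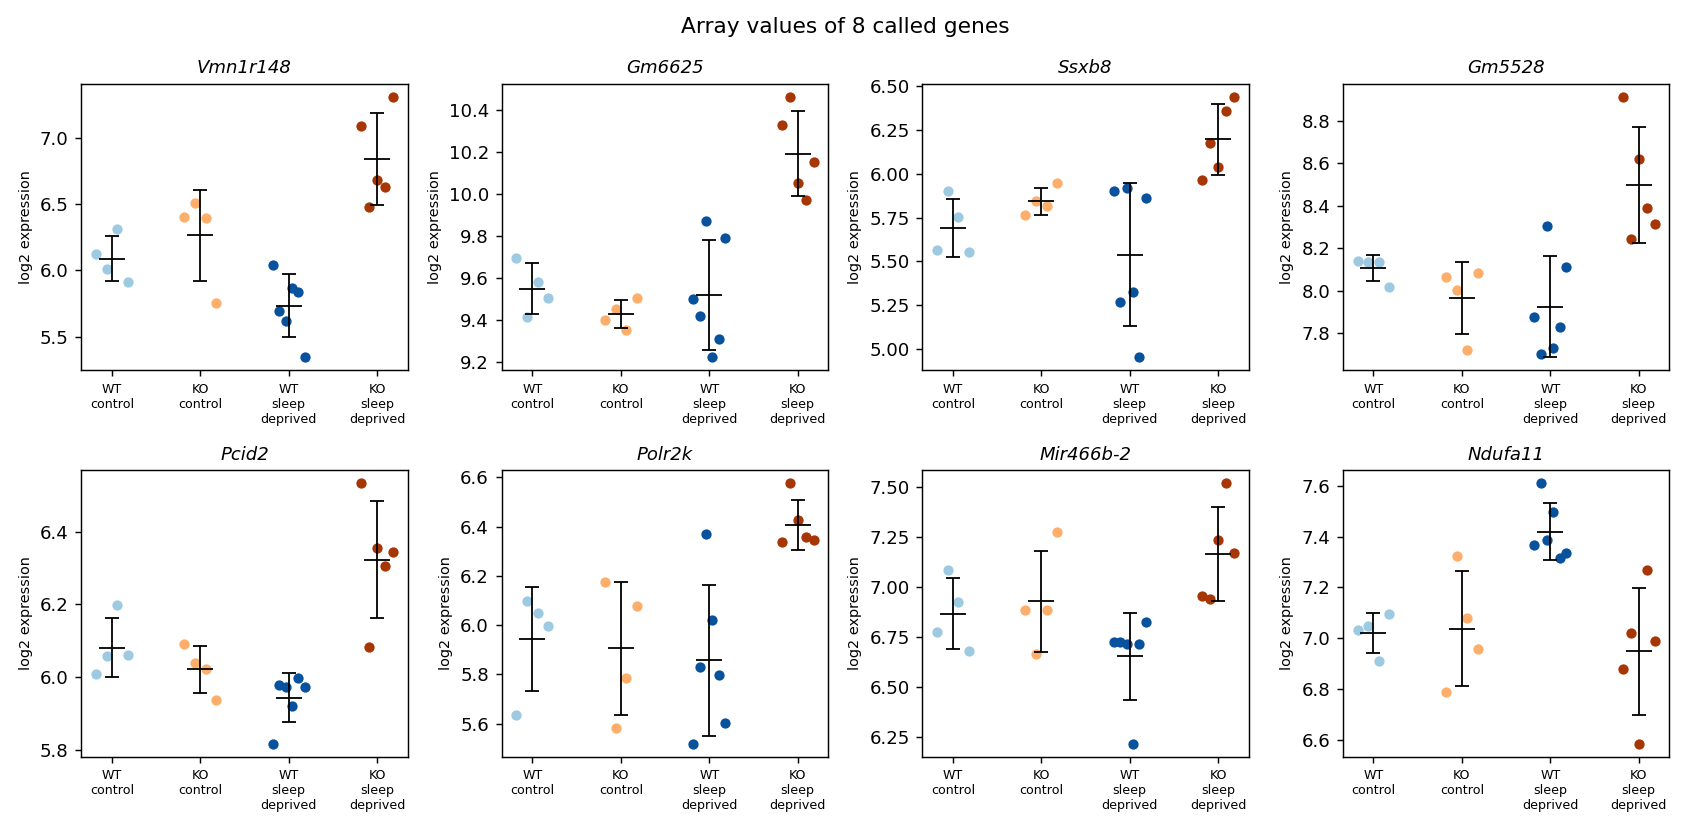
Level of 8 genes that passed the test, in log2 expression on each panel's own vertical axis, with 1 point per array in the 4 groups and the mean ± SD as bars. Sleep-deprived knockout arrays lie above all sleep-deprived wild-type arrays for Vmn1r148, Gm6625, Ssxb8, Pcid2 and Mir466b-2 and below them all for Ndufa11.

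Polr2k and Ssxb8 complete the protein-coding genes with an established name. Polr2k encodes a small subunit shared by the nuclear RNA polymerases. On 1 of its probe sets the knockout levels were 6.34, 6.57, 6.42, 6.36 and 6.34, and the wild type ran from 5.52 through 5.81 to 6.37. Only wild-type replicate 3 reached into the knockout range. That probe set differed by 0.55 ± 0.14 (SE; limma adjusted p = 0.045), but the call was lost in 14 of the 19 fits that left out an array. On the brighter Polr2k probe set the difference was 0.11 ± 0.08 (SE) with an adjusted p = 0.58, and the mean of both had an adjusted p = 0.067, so the gene's 2 measurements did not give the same call.

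Ssxb8 belongs to the Ssx family, genes known mainly from testis and, in human, from fusions in synovial sarcoma, and its close copies can share probes. Knockout levels were 5.97, 6.18, 6.04, 6.36 and 6.44. The wild-type levels were split, with replicates 1, 3 and 6 at 5.90, 5.92 and 5.86 and replicates 2, 4 and 5 at 5.27, 5.32 and 4.95. The knockout lay above both sets of arrays, though by little above the higher ones. The difference was 0.66 ± 0.15 (SE; limma adjusted p = 0.030), lost in 5 of the 19 fits without an array. The other Ssx genes measured, Ssxb1 (0.03) and Ssxb9 (-0.0047), had adjusted p of 0.90 and 0.99.

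Predicted genes, loci with Gm names that come from gene models and are often pseudogenes, made up 7 of the 12 genes that rose. Over 230 measured predicted genes, 134 differences were positive, 7 passed as higher and none as lower, with a median of 0.02. Over all 1121 genes, 583 differences were positive and 11 genes passed as higher on their brightest probe set, with a median of 0.00. Gm6625, annotated as a pseudogene, had knockout levels of 10.33, 10.46, 10.05, 9.97 and 10.15, while the wild type ran from 9.22 through 9.46 to 9.87. Its groups were separate, and both control means, 9.43 in the knockout and 9.55 in the wild type, lay within the range of the sleep-deprived wild type. The difference was 0.67 ± 0.11 (SE; limma adjusted p = 0.0079), kept in all 30 alternatives.

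Gm5528, a pseudogene, differed by 0.57 ± 0.12 (SE; limma adjusted p = 0.022). Its knockout levels were 8.91, 8.24, 8.62, 8.39 and 8.31, and the wild type ran from 7.70 through 7.85 to 8.30, so the groups overlapped at their edges. The call was lost without wild-type replicate 2 or 4 or knockout replicate 1 or 3, and under median centring. In RefSeq this locus starts 5.36 Mb from Epha4 on the same chromosome, 1. It was the only 1 of 7 measured genes within 10 Mb of Epha4 that passed. The other genes there ran from -0.13 for Efhd1 to 0.11 for Gm5258, and the 7 had a median of 0.02 after sleep deprivation and 0.04 in controls. The remaining predicted genes rose by less: Gm906 by 0.48, Gm19399 by 0.44, Gm13981 by 0.33, Gm6272 by 0.30 and Gm8618 by 0.29, with adjusted p from 0.017 to 0.049. Gm13981 lost its call in 1 of 19 fits without an array, and the other 4 in 9 to 15 of them. Gm8618, like Gm5528 and Gm6625, is annotated as a pseudogene, and a probe set for such a locus can also read its parent gene.

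The 4 probe sets with several symbols all rose. A probe set listed for Sumo2, Mir684-2 and Mir684-1, present as 2 identical copies, had knockout levels of 7.71, 7.97, 7.55, 7.45 and 7.62, and the wild type ran from 6.67 through 6.98 to 7.66. Sumo2 encodes a small protein that is attached to other proteins as a modifier. Wild-type replicate 3 alone reached the knockout range here, and the difference was 0.60 ± 0.14 (SE; limma adjusted p = 0.033). A probe set listed for the ribosomal protein pseudogenes Rpl17-ps9 and Rpl17-ps10 was 0.38 higher (adjusted p = 0.028), with wild-type replicate 3 at 11.75 and the other wild-type arrays from 11.23 to 11.37. One listed for the olfactory receptor genes Olfr564 and Olfr560 was 0.45 higher (adjusted p = 0.029), with separate groups at 5.51 to 5.85 and 4.94 to 5.49. The first 2 lost their call in 8 of 19 fits without an array and the last in 5.

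In the other gene groups no member with a probe set of its own passed. Probe sets with several symbols, such as those listed for Rpl17-ps9 and Olfr564, were not counted here. Over all 1121 genes, 11 passed as higher and 1 as lower on the brightest probe set. At that share a list of 10 to 36 genes can hold no call by its size alone. Of 36 genes with ribosomal protein symbols, 20 differences were positive, none passed and the median was 0.01. These symbols include pseudogenes such as Rpl31-ps20. Rpl32 at -0.24 (adjusted p = 0.064) and Rps13 at 0.44 (adjusted p = 0.067) came nearest to the threshold. None of 25 olfactory receptor genes (median -0.06), 27 zinc finger genes (median 0.01) or 10 histone genes (median 0.04) passed. Small nucleolar RNAs, which guide chemical modification of ribosomal RNA, were positive in 9 of 10 with a median of 0.13, and none passed. In controls the median of these 10 was -0.09. Genes of the EphA4 pathway and of the sleep response were hardly represented: none of 22 Eph receptors and ephrins, 25 activity and immediate early genes or 22 clock genes was measured. Of 27 signalling partners of EphA4, Cfl1, the actin-severing protein cofilin, differed by -0.09 (adjusted p = 0.45) and Chn1, the Rac GTPase-activating protein α-chimaerin, by 0.02 (adjusted p = 0.95). Of 29 genes of sleep loss and stress, 4 were measured, and Fkbp5, a glucocorticoid-induced chaperone partner, came nearest at 0.21 (adjusted p = 0.26). Of 31 synaptic receptor and scaffold genes, 5 were measured, and the NMDA receptor subunit gene Grin2c came nearest at 0.23 (adjusted p = 0.17).

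MicroRNA precursors were positive in 30 of 41 genes, with a median of 0.06, and 1 passed. Mir466b-2, a precursor from the large microRNA cluster that RefSeq places within Sfmbt2, appears on 6 identical probe sets. Knockout levels were 6.96, 6.94, 7.24, 7.52 and 7.17, and the wild type ran from 6.22 through 6.72 to 6.82. The groups were separate, by 0.51 ± 0.13 (SE; limma adjusted p = 0.046), and the call was lost in 12 of 19 fits without an array. This precursor has near-identical relatives, so the probe set may read several of them. Mir1191 (0.32, adjusted p = 0.066), Mir1895 (-0.29, adjusted p = 0.088) and Mir703 (0.38, adjusted p = 0.13) came next by p.

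The numbering of probe sets places Mir466b-2 in a stretch of 73 probe sets, numbered 17366716 to 17366946, whose named members all belong to the Mir466, Mir467 and Mir669 families. The stretch was picked after its values were seen, and 39 of its probe sets are unnamed, so what they measure is not given. It holds 43 distinct profiles, of which 30 had a positive difference and 5 passed, all as higher, beside 52.7% positive and 1.54% called higher over all probe sets. Values varied between and within families, and none of the following passed: the Mir669a probe sets had a difference of 0.46 (adjusted p = 0.077), Mir669k of 0.08 and the Mir467a probe sets of -0.04 to -0.07. The median over the 43 profiles was 0.08, with a range from -0.39 to 0.80, and in controls it was 0.04. Counted with repeats, 12 probe sets passed. That number was 3 without knockout replicate 1 or 3, 2 without knockout replicate 4 or wild-type replicate 4, 3 without wild-type replicate 1 or 5, 4 without wild-type replicate 2 and 23 without knockout replicate 2. Leaving out control arrays mattered as well, with 3 passing without wild-type control 1 or 3 or knockout control 1 or 3.

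Of the unnamed probe sets in that stretch, 17366928 had the second smallest p over the whole array. Knockout levels were 10.67, 10.47, 10.61, 10.70 and 10.63, and the wild type ran from 9.80 through 9.99 to 10.13. The spread within each genotype was small beside the gap. The difference was 0.65 ± 0.07 (SE; limma adjusted p = 5.0e-05), and control means were 10.04 in the knockout and 10.12 in the wild type. Probe set 17366904 had knockout levels of 7.59, 7.66, 7.73, 7.55 and 7.71 against 6.55 to 7.01, a difference of 0.80 ± 0.10 (SE; adjusted p = 0.00038).

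A second stretch of 21 probe sets, numbered 17532593 to 17532653, surrounds those of ND4 and CYTB, genes of the mitochondrial genome for a complex I subunit and for cytochrome b. It too was picked after its values were seen, and the annotation does not say what its 19 unnamed probe sets measure. All 21 differences were positive after sleep deprivation, with a median of 0.31, and all 21 were negative in controls, with a median of -0.08. Of the 21 probe sets 7 passed, by 0.42 to 0.83, all unnamed, beside 1.68% of all probe sets and 2% of the unnamed ones. The named ones did not pass: ND4 differed by 0.08 (adjusted p = 0.46) and CYTB by 0.13 (adjusted p = 0.34), both near the top of the scale at 13.84 to 14.22. A probe set elsewhere in the numbering, listed for ATP6, Gm10925 and ATP8, differed by 0.21 (adjusted p = 0.053), with knockout levels of 13.78 to 13.87 above wild-type levels of 13.52 to 13.72.

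Averaged over the 21 probe sets, the level was 11.35, 11.11, 11.26, 11.25 and 11.20 in the knockout, and ran from 10.62 to 11.24 in the wild type, with replicate 3 highest. The genotypes therefore overlapped through that array. Control means were 11.07 ± 0.04 (SD, n = 4) in the wild type and 10.97 ± 0.07 (SD, n = 4) in the knockout. Without wild-type replicate 3, 11 of the 21 passed, without wild-type replicate 2, 3 did, and without knockout replicate 1 or 3, 2 and 4 did. With only the sleep-deprived arrays fitted none of the 21 passed by limma. One difference turned negative under quantile normalization, under median centring, with array weights, with the replicate number as a block and without wild-type replicate 1 or 6 or knockout replicate 4, leaving 20 positive.

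**Figure D3:**
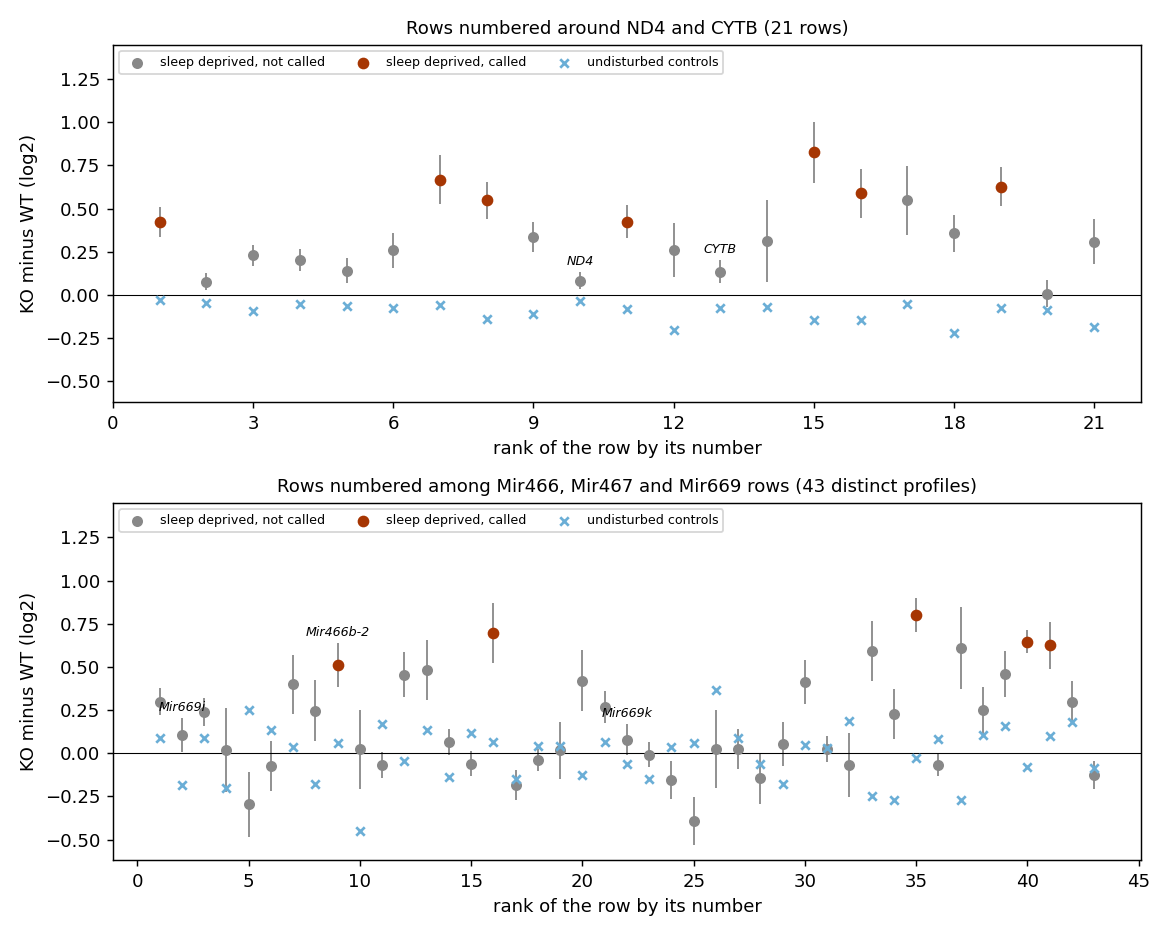
Knockout minus wild-type difference (log2, vertical axis) of probe sets in order of their number (horizontal axis), for the 21 around ND4 and CYTB (top) and the 43 distinct profiles among Mir466, Mir467 and Mir669 (bottom). Circles with SE bars are sleep-deprived mice, red where the test was passed, and crosses are undisturbed controls: in the top panel all circles lie above 0 and all crosses below it.

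The largest rises of all were on unnamed probe sets. Probe set 17529227 had knockout levels of 7.07, 6.32, 6.67, 6.62 and 7.37, and the wild type ran from 4.12 through 4.79 to 5.37. Every knockout array lay above every wild-type array, and control means were 5.08 and 5.12. It differed by 2.02 ± 0.19 (SE; limma adjusted p = 1.3e-05), a 4.06-fold change, and passed in all 28 alternatives that kept it. With a mean of 5.45 over all arrays it was dim, and leaving out the dimmest 40% of probe sets removed it. Probe set 17231356 followed at 1.55 ± 0.27 (SE; adjusted p = 0.0091). Its knockout levels were 6.76, 6.38, 5.74, 6.49 and 6.77, and the wild type was widely spread, from 4.06 through 4.82 to 5.68. Probe set 17395969 differed by 1.40 ± 0.26 (SE; adjusted p = 0.010), with knockout replicate 4 at 4.42 inside the wild-type range of 3.23 to 4.50. Its mean over all arrays was 4.34, and the filter on dim probe sets removed it too. The next 7 rose by 0.81 to 0.97, and 2 of them, 17215982 and 17300233, had separate groups. These 7 lost their call in between 1 (17410304) and 16 (17478956) of the 19 fits without an array. Probe set 17300233 was the only 1 of these 10 with a sizeable control difference, 0.59 against 0.84 after sleep deprivation.

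Falls on unnamed probe sets were smaller and more even. Probe set 17445593 had knockout levels of 4.48, 4.57, 4.47, 4.72 and 4.70, and the wild type ran from 4.88 through 5.05 to 5.26. The groups were separate by a narrow margin, at -0.48 ± 0.09 (SE; limma adjusted p = 0.010), and among its 28 alternatives the call was lost only at the stricter threshold of 0.01. Probe set 17423049 had the largest fall at -0.51 ± 0.12 (SE; adjusted p = 0.033), with knockout levels of 5.45, 6.00, 5.71, 6.05 and 5.60 against 6.05 to 6.59. Its call was lost in 7 of the 19 fits without an array. Probe sets 17470576, 17384175, 17376616 and 17542965 fell by 0.50, 0.49, 0.49 and 0.48 on the log2 scale. Their calls were lost in 0, 6, 5 and 0 of those 19 fits. The other 4 of the 10 largest falls lay between -0.39 and -0.47, and lost their call in 8 to 14 of the 19.

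**Figure D4:**
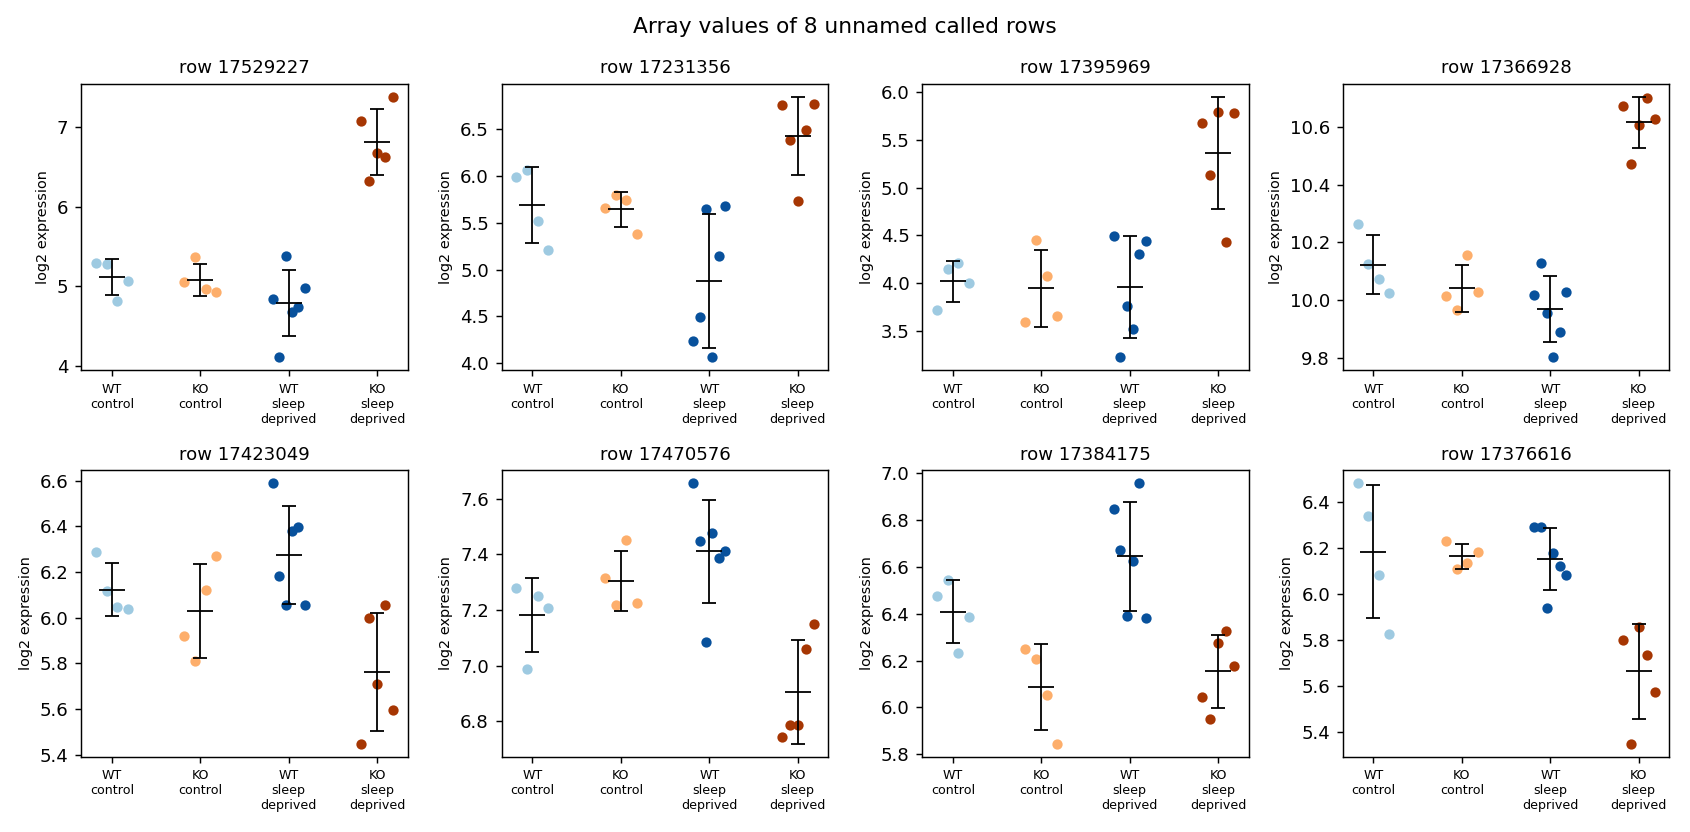
Level of 8 unnamed probe sets that passed the test, 4 higher in the sleep-deprived knockout (top) and 4 lower (bottom), in log2 expression with 1 point per array and the mean ± SD as bars. The top right panel, probe set 17366928, shows 5 knockout arrays at 10.47 to 10.70 above 6 wild-type arrays at 9.80 to 10.13.

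No genotype difference passed the test in undisturbed mice. None of the 8751 probe sets passed in the 4 knockout against 4 wild-type controls (limma, smallest adjusted p = 0.79; 476 with an unadjusted p under 0.05, against 1345 after sleep deprivation). The control comparison has fewer arrays and a larger SE, such as 0.22 against 0.19 on 17529227. The 2 counts are therefore not a like measure of the genotype difference. The 135 probe sets that rose had a median control difference of -0.03, with 58 of the same sign, and the 12 that fell had one of 0.06, with 5 of the same sign. All 147 had the larger absolute difference after sleep deprivation, which their selection favours. That the 2 conditions differ was tested by the interaction, the genotype difference after sleep deprivation minus that in controls: 6 probe sets passed (0.0686%), and 5 of them are among the 147. All 6 are unnamed. They are 17529227 at 2.06 (adjusted p = 0.0055), 17366928 at 0.73 (0.0055), 17520156 at 0.86 (0.021), 17267654 at -0.76 (0.023), 17247498 at 0.91 (0.035) and 17366904 at 0.83 (0.044). Vmn1r148, the named gene with the largest rise, had an interaction of 0.93 with an adjusted p = 0.20. No other probe set among the 147 passed for the interaction. An unadjusted interaction p under 0.05 (limma) was found for 136 of the 147 and for 1007 of all 8751. The interaction contains the difference by which the 147 were chosen, so their selection favours a small p.

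**Figure D5:**
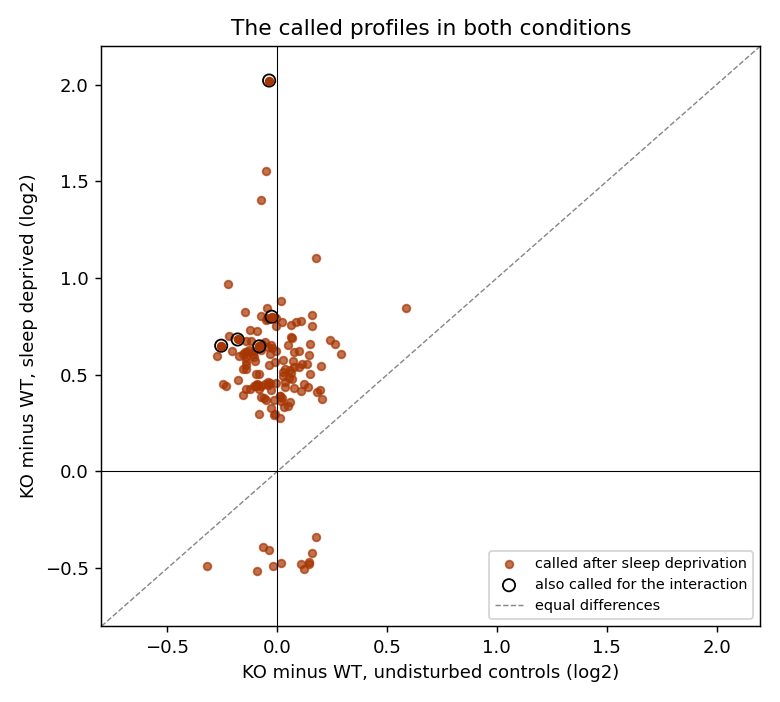
Genotype difference (knockout minus wild type, log2) in undisturbed controls (horizontal axis) against that after sleep deprivation (vertical axis), 1 point for each of the 139 distinct profiles that passed after sleep deprivation. Ringed points also passed for the interaction and the dashed line marks equal differences: points spread from 0.28 to 2.02 or from -0.51 to -0.34 vertically, and from -0.32 to 0.59 horizontally.

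For most of these probe sets the undisturbed controls lay between the sleep-deprived genotypes. Averaged over the 127 distinct profiles that rose, the level was 7.54 ± 0.05 (SD, n = 5) in the sleep-deprived knockout and 6.95 ± 0.12 (SD, n = 6) in the sleep-deprived wild type. The undisturbed means lay between them, at 7.14 ± 0.02 (SD, n = 4) in the knockout and 7.15 ± 0.05 (SD, n = 4) in the wild type. For 115 of the 135 probe sets the sleep-deprived knockout mean lay above both control means and the sleep-deprived wild-type mean below both. The 12 that fell mirrored this, at 5.64 ± 0.05 in the knockout (SD, n = 5) and 6.09 ± 0.12 in the wild type (SD, n = 6), with controls at 5.92 and 5.89. For 9 of these 12 the controls lay between the 2 sleep-deprived means. The probe sets were chosen by the gap itself, so these levels are a description.

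Blood in the tissue was followed through 5 probe sets of the haemoglobin genes, all with several symbols. Their differences after sleep deprivation ran from -0.17 to 0.22, with adjusted p from 0.50 to 0.95, and the knockout and wild-type levels overlapped on each. At the threshold, the last 5 probe sets inside it had adjusted p of 0.047 to 0.0498 with differences of 0.44, 0.44, -0.47, 0.70 and 0.81, and the 5 just outside had differences of 0.30 to 0.42 at an adjusted p = 0.053.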

How the data were processed

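Per the labels, biotin-labelled total RNA from forebrain was read on Mouse Gene 2.0 ST arrays of Affymetrix. The authors deposited 1 log2 expression value per probe set and array. RMA, oligo and limma are named in the submitters' processing notes, with neither versions nor an order of steps, and the build is not given in the sources used here. GEO marks the sample tables as incomplete. Precision is limited by the number of arrays.

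Genes were named from the platform annotation, and RefSeq (GRCm38.p6) matched 1045 of 1121 genes with a symbol of their own by identifier. The means of the 4 groups were fitted on all 19 arrays with limma 3.58.1 in R 4.3.3, without covariates. Moderated p-values received Benjamini-Hochberg adjustment over 8751 probe sets, of which 346 repeat another's values, at a threshold of 0.05. Named were every called gene and every called probe set with several symbols, the 10 largest rises and 10 largest falls among unnamed distinct profiles, up to 4 genes of smallest p per list, and the 5 probe sets on either side of the threshold. Where a gene had several probe sets the brightest was used, and called ones were named too. The 2 stretches of neighbouring probe sets were added after values were seen. The comparison, lists and rule were chosen with earlier results of these data known. Same-numbered samples of the sleep-deprived genotypes deviated together in no regular way (correlations from -0.22 to 0.08), so numbers were not treated as pairs. Alternatives varied the prior variance, array weights, filters, normalization, threshold, arrays fitted and replicate block. Scripts were tested on simulated data, and plots drawn with matplotlib 3.10.9 in Python 3.11.15.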

Additional observations from a re-analysis of the deposited data

Results flagged for a closer look

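In 148 sets of 4 to 6 arrays, covering 37 named probe sets in 4 groups, 7 had 1 array far from the others of its group by Dixon's test, and chance alone would mark about 5% of such sets. Of the sleep-deprived arrays, wild-type replicate 3 was at 11.7 on the Rpl17-ps9 and Rpl17-ps10 probe set, with the other wild-type arrays at 11.2 to 11.4. Wild-type replicate 4 was at 6.22 for Mir466b-2, with the others at 6.71 to 6.82. Knockout replicate 1 was at 5.26 on probe set 17236729, with the others at 5.03 to 5.09. Among the undisturbed arrays, Gm5528 was at 8.02 in wild-type control 4, against 8.13 to 8.14. Probe set 17346952 was at 6.11 in wild-type control 2, against 6.47 to 6.49. Vmn1r148 was at 5.75 in knockout control 4, against 6.39 to 6.51, and Gm19399 was at 7.05 in knockout control 3, against 7.50 to 7.58.

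The genotype difference was not the same after sleep deprivation and in controls for 6 unnamed probe sets, by the test of the interaction itself. It was 2.06 larger after sleep deprivation on 17529227, 0.91 larger on 17247498, 0.86 larger on 17520156, 0.83 larger on 17366904 and 0.73 larger on 17366928. On 17247498 the difference was 0.65 after sleep deprivation and -0.25 in controls, and on 17520156 it was 0.68 and -0.18. On 17267654 the interaction was -0.76, from a difference of -0.30 after sleep deprivation, which did not pass on its own (limma adjusted p = 0.077), and 0.46 in controls.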

How the results depend on the processing

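The count of probe sets that differed after sleep deprivation was 147. Of the 1308 probe sets with 1 symbol, 18 were among these (17 higher, 1 lower). When only those 1308 were tested, 28 passed (24 higher, 4 lower). Over all 8751 probe sets the count was 36 with only the sleep-deprived arrays, 23 at a threshold of 0.01 and 338 at 0.1. It ran from 67 to 298 when 1 array was left out. With quantile normalization it was 133 and with median centring 109, with 72.2% and 76.1% of calls higher against 91.8%. Neither scaling moved the median of all probe sets by more than 0.03. The replicate block gave 70 calls, 59 of them among the 147. The labels do not say whether same-numbered samples share a batch. Only the sleep-deprived wild type has a replicate 6, so the block takes that array out of the estimated difference. The median difference over all probe sets was 0.0048 both with the block and without that array. Of the 13 named genes, the block kept Vmn1r148, Gm6625, Pcid2, Ndufa11 and Gm5528. In controls no probe set passed in any alternative (limma; 476 at an unadjusted p under 0.05 in the fit to all arrays). The interaction count of 6 became 0 with only probe sets of 1 symbol (limma; 147 of them at an unadjusted p under 0.05). All 6 are unnamed, so none of them was in that test. Over all probe sets the interaction count became 2 at a threshold of 0.01 and 5 with the block, and ran from 2 to 41 when 1 array was left out. It was 41 without wild-type sleep-deprived replicate 3, and 2 without wild-type control 1, knockout control 2 or 4 or knockout sleep-deprived replicate 1 or 3. It was 3 without wild-type control 2 or 3. None of the 37 probe sets followed through all alternatives changed direction. All but the brighter Polr2k probe set were followed because they passed, which makes a change of direction unlikely. Of 62 named ones that did not pass, 11 changed direction in at least 1 of 15 alternatives, all within 0.08 of 0, among them Chn1, Hspa8, Ssxb1, Ssxb9 and Sp100. Signal near background and the number of arrays limit what could be detected.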
